A study of Mus musculus with 10 samples.

Results

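The genes of the cytosolic ribosomal proteins were read out of 10 ATAC-seq peak lists from MYC-driven mouse liver tumours. They were chosen by symbol alone, as the Rpl and Rps genes followed by a number, with Rplp0, Rplp1, Rplp2, Rpsa and Fau, and without the Rps6k kinases. This gave 85 of the 21631 protein-coding genes on autosomes and X in RefSeq's table for GRCm38.p6, whose main chromosomes mm10 shares. They comprised 43 genes of the large (60S) subunit, 3 genes of its acidic stalk, 32 genes of the small (40S) subunit and 7 paralogs, whose symbols end in l or l1. A gene counted as called in a library when a peak of that library's list reached within 1 kb of either end of the gene, which is termed a gene-end peak.

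Homo tumours (n = 3, about 100 days old) were LAP-tTA; Arid1a fl/fl; Alb-cre; TRE-MYC. Het tumours (n = 3, about 70 days old) were LAP-tTA; Arid1a fl/+; Alb-cre; TRE-MYC. WT tumours (n = 4, about 55 days old) were LAP-tTA; Arid1a fl/fl; TRE-MYC, so they carried the floxed alleles but no Cre. All mice were FVB, and all carried the liver-driven activator and the MYC transgene that it switches on once doxycycline is withdrawn. Arid1a encodes the ARID-domain protein of BAF, a SWI/SNF complex that moves nucleosomes. The albumin promoter confines Cre to liver parenchymal cells, so other cells of the tumour keep the gene. Tumours were taken at death, at ages that differ by genotype, and kept frozen. Age, the presence of Cre and Arid1a genotype therefore cannot be told apart when WT is the comparator. In Homo against Het, age and Arid1a genotype cannot be told apart either. The titles number the libraries without naming separate mice, so p-values reflect only library-to-library spread, which may be technical. The lists come from bulk tissue, where fewer cells of a type and less signal per cell cannot be told apart.

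Ribosomal proteins fold around the ribosomal RNAs to form the small subunit, which decodes the messenger RNA, and the large subunit, which joins amino acids. Their genes are short, are transcribed in almost every cell, and as a rule start within a run of pyrimidines that becomes the 5′ terminal oligopyrimidine (TOP) tract, through which mTOR signalling controls their translation. MYC is known to raise transcription of ribosomal protein genes in growing cells. In ATAC-seq a transposase cuts accessible DNA, and active promoters appear as peaks just upstream of the start.

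The RefSeq promoter table (GRCm38.p6) held 65 of the 85 genes. The stretches below run from 80 bases before the annotated start to 20 bases from it on, so that the start is the 81st base. They are printed on the strand of the gene, and capitals mark runs of at least 6 pyrimidines within 20 bases of the start. The first 4 are shown because their gene ends carried a peak in each of the 10 libraries.
Rpl15, chr14:18270967-18271066, minus strand: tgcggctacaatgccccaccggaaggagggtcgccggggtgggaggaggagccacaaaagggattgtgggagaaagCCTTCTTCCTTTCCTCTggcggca
Rps21, chr2:180257299-180257398, plus strand: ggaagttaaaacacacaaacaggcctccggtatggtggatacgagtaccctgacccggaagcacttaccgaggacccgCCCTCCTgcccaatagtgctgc
Rps12, chr10:23787190-23787289, minus strand: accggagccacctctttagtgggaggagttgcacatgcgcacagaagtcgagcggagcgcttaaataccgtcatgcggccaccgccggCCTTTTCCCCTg
Rpl41, chr10:128549149-128549248, minus strand: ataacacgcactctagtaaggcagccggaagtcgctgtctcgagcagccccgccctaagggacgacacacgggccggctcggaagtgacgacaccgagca
The next was called in all 10 libraries at its start, which lay outside the gene-end windows, and the last 3 had no peak at the start in any library.
Rps27l, chr9:66946006-66946105, plus strand: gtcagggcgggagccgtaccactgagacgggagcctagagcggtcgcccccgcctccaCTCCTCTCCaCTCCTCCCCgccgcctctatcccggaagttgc
Rps4x, chrX:102189372-102189471, minus strand: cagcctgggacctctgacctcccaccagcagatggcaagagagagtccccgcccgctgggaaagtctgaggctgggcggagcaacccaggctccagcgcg
Rpl10l, chr12:66284382-66284481, minus strand: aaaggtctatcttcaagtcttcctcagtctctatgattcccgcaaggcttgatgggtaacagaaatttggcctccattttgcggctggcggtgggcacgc
Rpl39l, chr16:10170148-10170247, plus strand: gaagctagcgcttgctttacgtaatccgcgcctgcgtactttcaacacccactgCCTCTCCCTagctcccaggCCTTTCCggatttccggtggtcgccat
Rpl15 had a pyrimidine run of 17 bases that held the start. In Rpl41, Rps4x and Rpl10l no run of at least 6 lay this close to the annotated start.

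The lists differed in depth, and this bears on every count below. They held 1748 to 9587 regions in Homo, 2583 to 5796 in Het and 6731 to 9526 in WT libraries. Depth was recovered from the deposited values as background tags per 200 bp, and was 0.464 to 1.61 in Homo, 0.655 to 0.738 in Het and 0.985 to 1.75 in WT. Homo 2 was the shallowest library and Homo 3 was close to the deepest, so the Homo group spans nearly the whole range. Of 9 hepatocyte marker genes in the table, 4 were called in any library (Alb, Apoa1, Apob and Ttr), with 0, 0 and 3 in Homo 1 to 3, 0 in each Het library and 2, 4, 0 and 1 in WT 1 to 4. Spi1 (macrophage) was called in Homo 3, Epcam (cholangiocyte) in WT 3 and WT 4, and Nfe2 (erythroid) in Homo 3, WT 1 and WT 2. None of the 5 endothelial, 5 stellate and fibroblast or 5 lymphocyte markers was called, and no marker of any of these lists was called in a Het library. The markers therefore give little check of the labelled tissue, and their part in the results was not tested.

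Ribosomal protein genes were called more often than other genes in every library. At least 1 library called 76 of the 85 genes (89.4%), against 42.6% of all protein-coding genes. At least 5 libraries called 61 genes (71.8%), against 29.1% of all genes. The median gene of the set was called in 6 libraries, and the median over all protein-coding genes was 0. These shares were not tested, since this gene family was chosen with results of these data known, although its members were picked by symbol.

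Counted by library, Homo 1, 2 and 3 called 40, 10 and 71 ribosomal protein genes. Het 1, 2 and 3 called 43, 42 and 21, and WT 1, 2, 3 and 4 called 72, 71, 56 and 69. The mean was 40.3 ± 30.5 in Homo (SD, n = 3), 35.3 ± 12.4 in Het (n = 3) and 67.0 ± 7.44 in WT (n = 4). Every Het library lay below every WT library, while Homo 3 lay within the WT range and the other Homo libraries lay below it. Other genes moved in the same order, with 19.8 ± 15.4% called in Homo, 18.1 ± 6.96% in Het and 32.5 ± 3.31% in WT (SD). The share of ribosomal protein genes over the share of other genes was 2.33 ± 0.622 in Homo, 2.33 ± 0.202 in Het and 2.43 ± 0.0907 in WT. Set against the other genes of the same library, the means of the 3 genotypes thus differed by less than the SD over all 10 libraries (0.317). They also differed by less than the SD in Homo or in Het, while WT differed from both by slightly more than the WT SD. Homo 2 had the lowest ratio (1.74) and Homo 1 the highest (2.98).

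**Figure D1:**
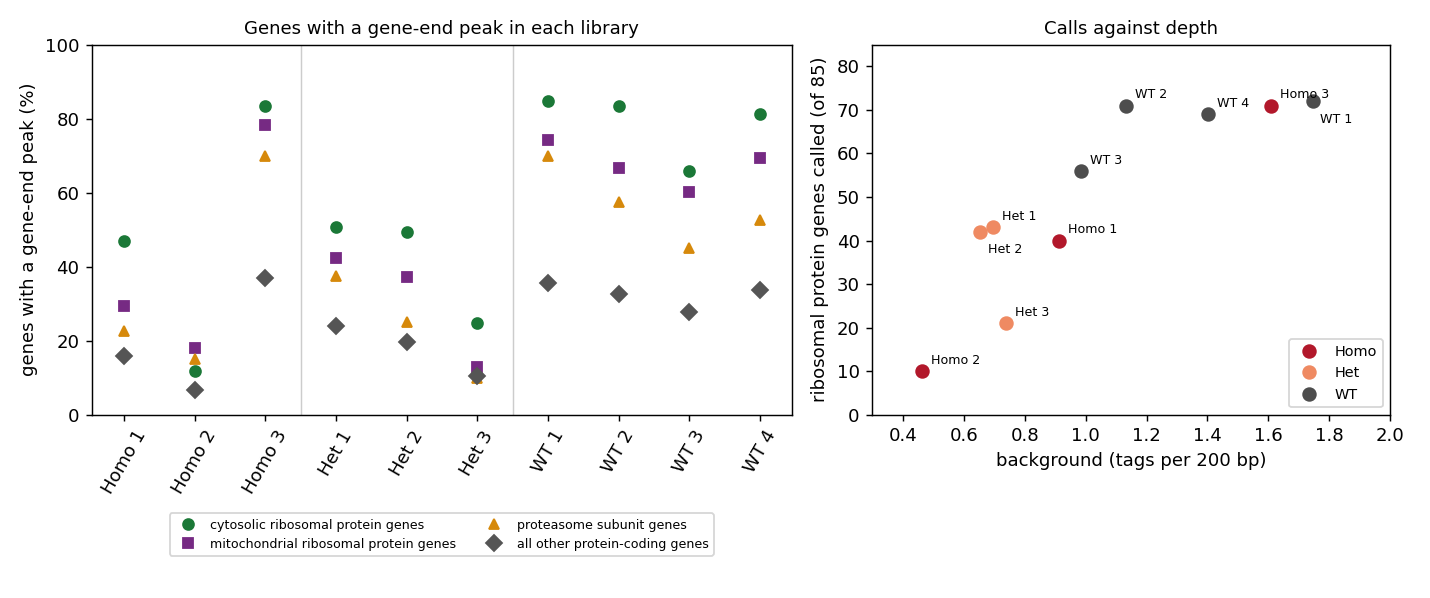
Left, percent of genes with a gene-end peak in each library for 85 cytosolic ribosomal protein genes, 78 mitochondrial ribosomal protein genes, 40 proteasome subunit genes and all other protein-coding genes, 1 point per library. Right, number of the 85 genes called against the background depth recovered from each list (tags per 200 bp). The cytosolic set lies above other genes in all 10 libraries, and the 10 genes called in Homo 2 are the fewest at the lowest depth.

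The part of depth in these counts was not tested. Within Het, Het 3 had the most background and the fewest genes called, over a narrow range of background (0.655 to 0.738 tags per 200 bp). When every list was scaled to the depth of Homo 2, the genes called were 37, 10 and 58 in Homo, 43, 42 and 21 in Het and 47, 62, 52 and 47 in WT libraries. The group means were then 35.0 ± 24.1 in Homo, 35.3 ± 12.4 in Het and 52.0 ± 7.07 in WT (SD). Each WT library still lay above each Het library. At this depth a mean of 15.2% of other genes was called in Homo, 17.6% in Het and 23.8% in WT. The mean share of other genes was thus also highest in WT. Ratios to other genes were 2.56 ± 0.767 in Homo, 2.41 ± 0.234 in Het and 2.57 ± 0.1201 in WT (SD). When each list was instead cut to its 1748 strongest peaks, the means were 15.7 ± 6.03 in Homo, 20 ± 4.36 in Het and 15.5 ± 3.70 in WT, so that Het was no longer below WT. Other genes were then called at 7.12% in Homo, 7.06% in Het and 7.35% in WT, and the ratios were 2.61 ± 1.10, 3.32 ± 0.624 and 2.48 ± 0.578. This cut gives all lists the same number of peaks, so a loss of peaks across a whole list cannot show in it. The order of the genotypes therefore depended on how the lists were made comparable.

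Other sets of housekeeping genes behaved in the same direction, with different ratios. Mitochondrial ribosomal protein genes (78 genes) were called 2.21 ± 0.400 times as often as other genes in Homo, 1.62 ± 0.347 in Het and 2.09 ± 0.0547 in WT (SD). Proteasome subunit genes (40 genes) had ratios of 1.85 ± 0.398 in Homo, 1.26 ± 0.301 in Het and 1.73 ± 0.183 in WT. A list of 26 elongation factor, TOP and mTOR pathway genes, among them Eef1a1, which delivers aminoacyl tRNA to the ribosome, had ratios of 3.98 ± 1.56 in Homo, 3.37 ± 0.562 in Het and 2.89 ± 0.203 in WT. Of these 26 genes, 5 were called in all 10 libraries (Eef1a1, Eef1g, Naca, Npm1 and Tpt1). A list of 18 genes of ribosomal protein chaperones, subunit export and surveillance had 1.77 ± 0.442 in Homo, 2.04 ± 0.322 in Het and 1.96 ± 0.114 in WT. Differences between the ratios of these lists were not tested.

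Among the large subunit genes, 40 of 43 were called at least once and 30 in at least 5 libraries. The mean number called was 20 ± 15.1 in Homo, 17.0 ± 8.72 in Het and 34.5 ± 4.20 in WT (SD). Rpl15, a large subunit protein, had rank percentiles of 64.4, 40.1 and 95.8 in the Homo lists, 96.1, 91.3 and 87.8 in the Het lists and 94.7, 96.8, 88.4 and 87.6 in the WT lists, where 100 is the strongest region of a list. Its peak was thus near the top of its list except in Homo 1 and Homo 2. The peaks together spanned chr14:18270867-18271476, across the start at the higher coordinate of the gene, within 1 kb of an end of Nkiras1 as well. Rpl15 was the only member called in all 10 libraries when lists were cut to 1748 peaks.

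Rpl41, which encodes a very short basic protein, had rank percentiles of 88.9, 72.9 and 89.9 in Homo, 70.1, 96.1 and 73.5 in Het and 40.4, 95.3, 79.2 and 46.4 in WT. Its lowest ranks were in WT 1 and WT 4, and the groups overlapped. In WT 2 the strongest peak lay at the other end of the gene, at chr10:128547336-128547997, and Zc3h10 also ends within 1 kb of the peaks. Over the 10 libraries the median rank percentile was 76.4 for the strongest gene-end peak and 65.4 for the strongest peak at the start. WT 2 alone does not account for this gap, so the ranks given for Rpl41 do not all belong to 1 peak. Rpl27, a large subunit protein, was called in 9 libraries, all but Het 3, with the highest median rank percentile of any member, 92.1. It ranked low in Homo 2, at percentile 17.0, and high in Homo 3 (97.5) and WT 2 (97.7).

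Rpl5 and Rpl11, which with 5S ribosomal RNA form the particle that binds Mdm2 and stabilises p53, were called in 2 and 1 of 3 Homo, 2 and 1 of 3 Het and 4 and 4 of 4 WT libraries. Rpl5 had rank percentiles of 24.1 and 91.6 in Homo 1 and Homo 3, 21.4 and 67.1 in Het 1 and Het 2 and 69.4 to 79.3 in WT. Those of Rpl11 were 77.7 in Homo 3, 53.0 in Het 2 and 67.5 to 85.2 in WT. Both were missing from Homo 2, which called 9 of the 53 members called in all 4 WT libraries.

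The 3 stalk genes encode the proteins that bring elongation factors to the ribosome. Rplp0 was called in 2 of 3 Homo, 2 of 3 Het and 4 of 4 WT libraries, and Rplp2 in 2 of 3 Homo, 1 of 3 Het and 4 of 4 WT. Rplp1 was called in 2 of 3 Homo, 2 of 3 Het and 2 of 4 WT libraries, so its calls did not follow genotype. All of them were missing from Homo 2. Their median rank percentiles, between 45.8 and 53.7, lay near the middle of the lists.

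Among the small subunit genes, 30 of 32 were called at least once and 26 in at least 5 libraries. The mean number called was 17.0 ± 12.5 in Homo, 15.7 ± 4.51 in Het and 27.5 ± 3.11 in WT (SD). Rps21 had rank percentiles of 88.0, 44.2 and 95.7 in Homo, 71.8, 87.7 and 53.9 in Het and 88.2, 94.3, 95.4 and 40.5 in WT. Its peaks spanned chr2:180257032-180257649, across the start, and an end of Cables2 lies within 1 kb. Rps12 had 69.3, 63.7 and 54.4 in Homo, 77.4, 86.3 and 74.0 in Het and 77.0, 85.7, 87.8 and 93.7 in WT. Its Homo ranks were the 3 lowest, and no other protein-coding gene end lay within 1 kb. Ranks come from lists of different length, so they describe the place of a peak in its own list and show no change between genotypes.

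Rps6, the substrate of S6 kinase, was called in 2 of 3 Homo, 2 of 3 Het and 4 of 4 WT libraries, and Rpsa, the ribosomal protein also known as laminin receptor, in 1 of 3 Homo, 2 of 3 Het and 4 of 4 WT. Rps27a, whose protein is made as a fusion to ubiquitin, was called in 2 of 3 Homo, 2 of 3 Het and 4 of 4 WT libraries. Fau, a fusion of a ubiquitin-like protein with a small subunit protein, was called in 1 of 3 Homo, 0 of 3 Het and 3 of 4 WT libraries. Rps19, a gene mutated in Diamond-Blackfan anaemia, was called in 9 libraries and had the widest peaks of all members, with a median of 707 bp.

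**Figure D2:**
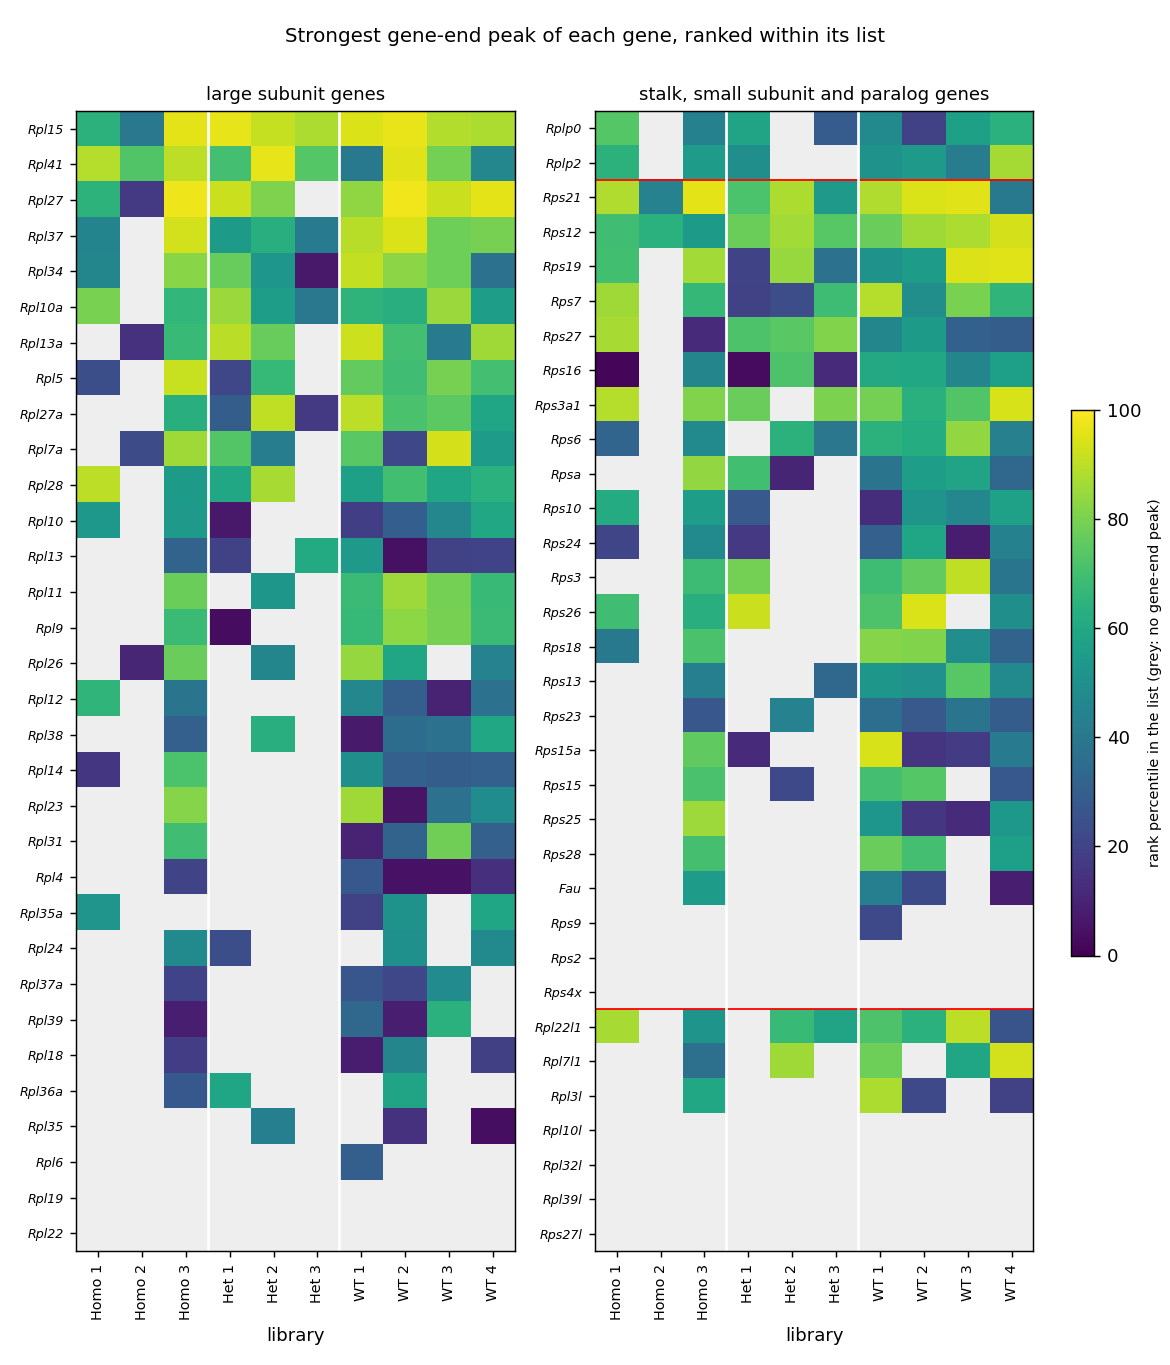
Rank percentile of the strongest gene-end peak of each of the 65 genes with an entry in the promoter table (rows) within the list of each library (columns), by −log10 p, where 100 is the strongest region of the list and grey means that no gene-end peak was called. Left, 60S genes; right, stalk, 40S and paralog genes, separated by red lines. Rpl15, Rpl41, Rps21 and Rps12 are filled in all 10 columns, and Homo 2 is the emptiest column.

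Homo 2, the shallowest library, still called 10 members. Among them were Rpl15, Rpl41, Rps21 and Rps12, and also Rpl27, Rpl7a, Rpl26 and Rpl13a. The highest ranks in this list belonged to Rpl41 (72.9) and Rps12 (63.7), and the other members had rank percentiles of at most 44.2.

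Of the members called in fewer than 5 libraries, 10 were called in 4, 2 in 3, 1 in 2, 2 in 1 and 9 in none. Rpl6 and Rps9 were called in WT 1 only. Rpl8, which binds the large subunit RNA, was called in Het 2 and WT 2, and Rpl35 in Het 2, WT 2 and WT 4. Rpl36a, on X, was called in Homo 3, Het 1 and WT 2, with ranks of 27.6, 58.7 and 58.5. The 9 members never called were Rpl17, Rpl19, Rpl22, Rps2, Rps4x and the paralogs Rpl10l, Rpl32l, Rpl39l and Rps27l.

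Part of these zeros came from where the table sets the gene ends. With windows of 1 kb around the annotated start, the 65 genes of the promoter table gave 60 called at least once, 48 in at least 5 libraries and 5 in all 10. The start of Rps2 lies 1942 bp inside the end of the gene in the table, and there it was called in 3 of 3 Homo, 2 of 3 Het and 4 of 4 WT libraries. The start of Rps27l, 1462 bp inside, was called in 10 of 10. Rpl22 was called at its start in 1 of 3 Homo, 2 of 3 Het and 4 of 4 WT libraries, and Rpl19 in 1 of 3 Homo, 0 of 3 Het and 3 of 4 WT. Rps4x, Rpl10l, Rpl32l and Rpl39l had no peak at the start either, and Rpl17 was not in the promoter table. With windows of 2500 bp at the gene ends, Rpl17 was called in 6 libraries.

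The 7 paralogs fell into called and uncalled genes. Rpl22l1 was called in 2 of 3 Homo, 2 of 3 Het and 4 of 4 WT libraries, beside the start calls of its parent Rpl22 above. Rpl7l1, a nucleolar relative of Rpl7, was called in 1 of 3 Homo, 1 of 3 Het and 3 of 4 WT libraries, and Rpl7 in 2 of 3 Homo, 0 of 3 Het and 4 of 4 WT. Rpl3l, the form of heart and skeletal muscle, had peaks in 1 of 3 Homo, 0 of 3 Het and 3 of 4 WT libraries, and these lay beyond its far end beside Msrb1 with none at its start. Its parent Rpl3 was called in 2 of 3 Homo, 2 of 3 Het and 4 of 4 WT libraries. Rpl10l and Rpl39l, the testis forms, were called in 0 of 10 libraries, while Rpl10 was called in 7 and Rpl39 in 4. Rps27l, a p53-responsive gene, and Rps27 were both called widely, in 10 libraries at the start and in 9 at the gene ends. Rpl32l was called in none, and Rpl32 in 5.

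Het was compared with WT to ask which gene ends had a peak called in WT and not in Het libraries. A gene was counted when all 4 WT libraries and no Het library had its gene-end peak. This held for 9 members (10.6%), Rpl4, Rpl7, Rpl12, Rpl14, Rpl23, Rpl31, Rpl32, Rps18 and Rps25, against 2.2% of all protein-coding genes. A gene must be called in all 4 WT libraries to be counted, and members met that condition more often. Among genes called in all 4 WT libraries, the count was 9 of 53 members (17.0%) against 9.37% of all such genes. No member showed the reverse pattern, with 0.00462% of all genes doing so.

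These 9 genes encode 7 large subunit proteins and 2 small subunit proteins. Peaks of Rpl4, Rpl7, Rpl12, Rps18 and Rps25 also lay within 1 kb of another protein-coding gene end. These neighbours were Zwilch for Rpl4, Rdh10 for Rpl7, Lrsam1 for Rpl12, B3galt4 and Vps52 for Rps18, and Trappc4 for Rps25. The peaks of those genes thus cannot be assigned to the member alone. Rpl4 lines the exit tunnel of the large subunit, Rpl23 lies on the face toward the small subunit, and Rpl12 sits at the base of the stalk. All 9 genes were called in Homo 3, 4 in Homo 1 (Rpl7, Rpl12, Rpl14 and Rps18) and 0 in Homo 2. The calls of these genes in Homo 3 were the only ones in the Homo group for Rpl4, Rpl23, Rpl31, Rpl32 and Rps25. In the WT lists their peaks were mostly weak, with a median rank percentile of 31.3 and a range from 4.09 to 85.8. Rpl4 had the lowest median rank of all called members, with percentiles of 20.7 in Homo 3 and 27.5, 4.94, 5.04 and 13.8 in WT 1 to WT 4. Rps18 was among the highest, with 40.4 and 71.3 in Homo 1 and Homo 3 and 81.8, 80.9, 49.2 and 32.0 in WT. These ranks do not all belong to 1 peak, since the start of Rps18 was called in 1 of 3 Homo, 0 of 3 Het and 3 of 4 WT libraries. Rps18 thus met the rule only through a peak near its other end.

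**Figure D3:**
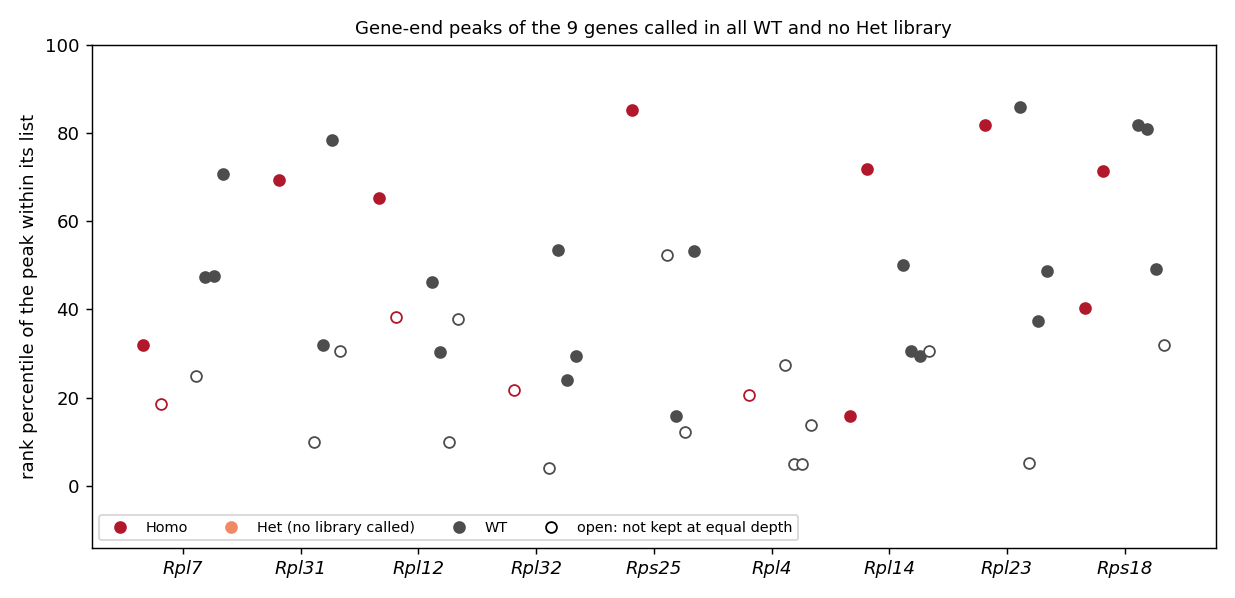
Rank percentile of the gene-end peak within its list for the 9 genes called in all WT and no Het library, 1 point per library that called the gene (Homo left, WT right, and no Het point). Filled points were kept when lists were scaled to the depth of Homo 2, and open points were not. Of the 36 WT points, 21 are filled.

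At equal depth none of the 9 genes met the rule. With lists scaled to the depth of Homo 2, the 9 genes were called in 4, 7, 6 and 4 cases in WT 1 to WT 4, so that no gene was left in all 4 WT libraries. The count of members called in all WT and no Het library was 0 of the 26 then called in all 4 WT libraries. Over all genes it was 123 of 2856 (4.31%), of which 110 were among the 475 of the deposited lists. With so few members left, a count of 0 lies near the share of all genes. With the 1748 strongest peaks it was 0 of 2 members, against 34 of 308 genes (11%), so that hardly any member could be counted. Rps27 then showed the reverse, called in all 3 Het and no WT library, as did 32 of all genes (0.148%). The Het libraries had less background than all WT libraries, and the part of depth in this pattern was otherwise not tested. Scaling leaves Het calls almost as they are, so at equal depth mainly the WT counts could fall.

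Fisher's exact test on called against not called libraries, two-sided and adjusted over all 21631 genes by Benjamini-Hochberg, passed no gene in any comparison, and the smallest adjusted p was 1. With 3 against 4 libraries the smallest p the design allows is 0.0286, which 476 genes reached in Het against WT, among them the 9 members. In Homo against WT, 29 genes and 0 members reached an unadjusted p under 0.05, and in Homo against Het 0 genes did. In Het and Homo pooled against WT, 397 genes and 5 members did.

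Homo was compared with WT to ask which gene ends had a peak called in WT and not in Homo libraries. No member was called in all WT and no Homo library, with 0.129% of all genes showing this, and none in all Homo and no WT library (0.00462% of all genes). Of genes called in all 4 WT libraries, 0 of 53 members and 0.553% of all genes were called in no Homo library. Homo 3 decided this. It called all 53 members that were called in all 4 WT libraries, Homo 1 called 35 and Homo 2 called 9. These are 66.0% of the 53 members in Homo 1, 17.0% in Homo 2 and 100% in Homo 3, against 52.0%, 24.1% and 98.7% of other genes called in all 4 WT libraries. Without Homo 3, 15 of the 53 members were called in all WT and no Homo library, against 41.3% of all genes called in all 4 WT libraries.

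Among those 53 members, the Het libraries called 38, 33 and 20, or 71.7%, 62.3% and 37.7%, and of other genes called in all WT libraries they called 80%, 68.5% and 37.4%. Homo compared with Het gave no member called in all Homo and no Het library (0.139% of all genes) and none the other way round (0.0139% of all genes). Of genes called in all 3 Het libraries, 0 of 14 members and 0.196% of all genes were called in no Homo library. With 3 against 3 libraries the smallest exact p is 0.1, so that Homo and Het cannot differ at 0.05 for any gene. Het and Homo pooled against WT gave no member either (0.0647% of all genes called in all WT and in no Het or Homo library). Of genes called in all 4 WT libraries these were 0 of 53 members and 0.276% of all genes. Leaving out Homo 3 gave 5 of 53 members called in all WT libraries and in none of the others, against 6.47% of all genes called in all WT libraries. These were Rpl4, Rpl23, Rpl31, Rpl32 and Rps25.

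In the related lists, Het against WT gave 9 of 78 mitochondrial ribosomal protein genes called in all WT and no Het library (11.5%), among them Mrpl1, which was also absent from all Homo libraries. It gave 2 of 26 elongation and TOP genes, Pabpc4, a poly(A)-binding protein, and Rptor, the mTORC1 subunit Raptor. Of the 40 genes of the proteasome list it gave Psmb2 and Psmd3, and of the 18 chaperone and surveillance genes none. Over all protein-coding genes the share was 2.2%. The shares of these lists among genes called in all WT libraries were not counted. Psmd3 was also called in all Homo and no Het library, as were 0.139% of all genes.

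In all 10 libraries 4 members were called (4.71%), against 2.27% of all protein-coding genes. Among genes called at least once the shares were 5.26% of 76 members and 5.34% of 9218 genes. Once called anywhere, members and genes at large thus had nearly the same share called in all libraries.

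Member peaks ranked somewhat higher in their lists than other gene-end peaks. The median rank percentile over libraries was 58.4 for member regions and 49.4 for other gene-end regions, and members were higher in 7 of 10 libraries. Homo 2, WT 1 and WT 4 were the exceptions, with 31.6 against 44.7 in Homo 2, 53.5 against 53.6 in WT 1 and 47.5 against 51.3 in WT 4. The deposited fold at the summit did not separate them, with a median over libraries of 6.42 for members and 6.49 for other gene-end regions. The share of member regions in the top 10% of a list was higher than that of other gene-end regions in 5 of 10 libraries, with medians of 8.85% and 7.54%. Among the members in the top 10% of at least 3 lists were Rpl15 and Rpl27 (5 lists each), Rps29 (4) and Rps21 (3).

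Peaks at the starts of ribosomal protein genes lay closer to the start than those of other genes. Of the members with a start peak, 55.2% to 77.2% per library had the summit within 100 bp of the start, against 44.0% to 58.9% of other genes, and the member share was higher in 10 of 10 libraries. The summit lay upstream in a median of 77.5% of member starts and 66.1% of other starts, with members higher in 9 of 10 libraries. The median position over libraries was −47 bp for members, in a range of −72 to −9 bp, and −39.5 bp for other genes. Median peak width at the start, taken over libraries, was 348 bp for members and 342.5 bp for other genes, but within libraries members were narrower in 7 of 10. Across the 60 members with a start peak, 45 had their median summit within 100 bp of the start, and 7 had it more than 200 bp upstream (Rps19, Rpl13a, Rplp2, Rps26, Rpl37, Rpl39 and Rpl10). Rpl10, on X, was farthest, at −473 bp.

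**Figure D4:**
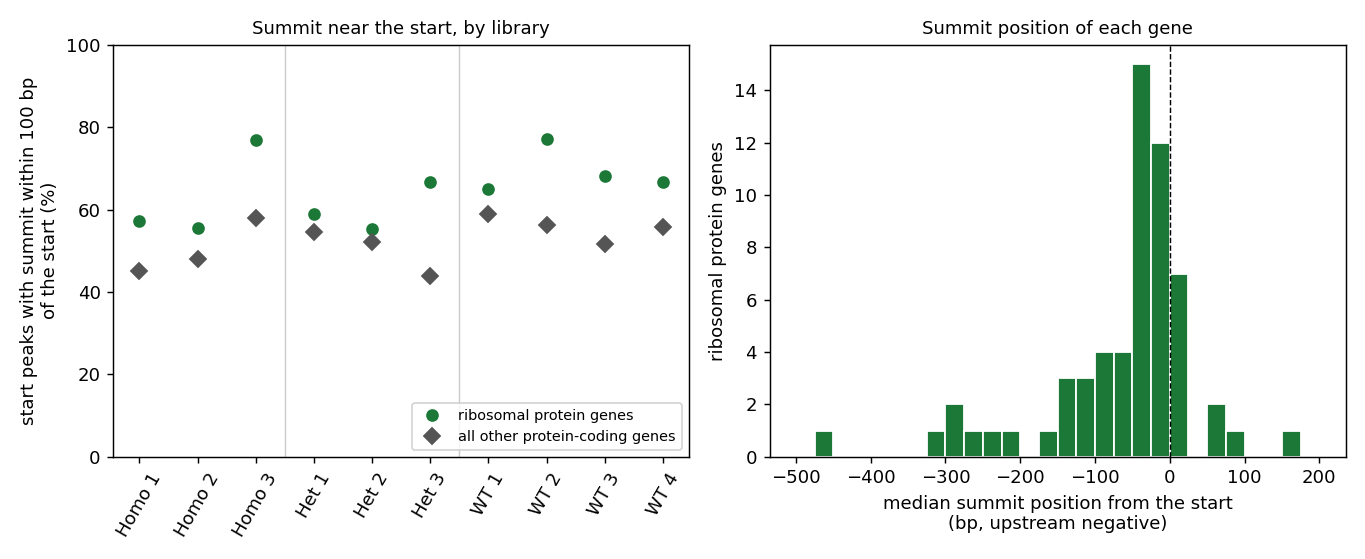
Left, percent of start peaks whose summit lies within 100 bp of the annotated start, for ribosomal protein genes and all other protein-coding genes in each library. Right, histogram of the median summit position of each of 60 ribosomal protein genes with a start peak, in bp from the start, with upstream negative. The member share is the higher in all 10 libraries, and 45 of the 60 genes lie within 100 bp of the start.

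Peak width differed among members. The widest medians belonged to Rps19 (707 bp), Rpl7 (577.5), Rpl10 (575), Rplp2 (567) and Rps29 (564), and the narrowest to Rpl35 (216), Rpl18 (225), Rps9 (226), Rpl6 (230) and Rpl39 (233.5). The wide peaks were called in 6 to 9 libraries and the narrow ones in 1 to 4. The regions of 21 of the 76 called members (27.6%) also lay within 1 kb of another protein-coding gene end, as did those of 30.9% of other called genes, so a peak there cannot be assigned to the member alone. The median member is 3175 bp long, against 17329 bp over all protein-coding genes, and 32 members contain 61 snoRNA genes, which guide chemical changes of ribosomal RNA. Members with a snoRNA inside had a median of 7 libraries and members without had 6.

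Promoter sequence was examined in the 300 bases from 250 before the start to 50 from it on, for 65 members and 17274 genes. The ETS core CCGGAA, on either strand, was in 35 members (53.8%) against 21.2% of all genes, and the BANP motif core CTCGCGA in 14 (21.5%) against 3.03%. The YY1 core AAGATGG was in 11 members (16.9%) against 7.24%. The NRF1 core GCATGC (9.23% against 9.33%) and the E-box CACGTG (9.23% against 9.02%), which MYC with MAX can bind, were as frequent in members as in all genes. CCAAT was rarer in members (29.2% against 42.7%), and CCCGCC, which SP1 can bind, was in 61.5% against 49.3%. The TATA box TATAAA, read on the sense strand only, was in 10.8% of members against 9.87%. Matches of different motifs overlapped in 3 members, and 6 held both the ETS and the BANP core. In the stretches printed above, the ETS core lies on the sense strand in Rpl15, Rps21, Rpl41 and Rps27l and on the other strand in Rpl39l, which had no peak.

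A pyrimidine run of at least 8 bases lay within 20 bases of the start in 32 of 65 members (49.2%), against 18.4% of all genes. The start itself fell in a run of at least 5 pyrimidines in 22 members (33.8%), against 10.3%. Members held a median of 21 CpG dinucleotides per 300 bases against 14, at a median GC content of 57.0% against 56.3%. Members with the ETS core were called at the start in a median of 7 libraries and those without it in 6, and those with the BANP core and without it in 6 each. These matches describe letters in a window and are not evidence that a factor binds there.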

How the data were processed

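The data were 10 ATAC-seq peak lists, 1 per library. Per the submitters' processing notes, Bowtie2, MACS2 and deepTools were used with the mm10 build. No version, read filter or calling setting is given in the sources used here. Each row deposited by the authors gives a score, a fold (a ratio, pileup over local background at the summit), a −log10 p and a −log10 q. As the authors' own values, they served only to rank, filter or scale peaks inside 1 list. No reads were counted here.

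The gene family and the gene lists were chosen with earlier results of these data known, and members were picked by symbol. Autosomes and X were used, and a gene was called where a peak reached within 1000 bp of either gene end. Depth was recovered as the smallest Poisson background shared by at least 10 rows, from the whole-number pileup and background that give a row's fold and −log10 p within 0.001; in the list with the fewest, 99.9% of rows gave one. For equal depth, pileups and backgrounds were scaled to the shallowest library and rows were kept from a −log10 p of 5 upward. It was not checked against read totals. Fisher's exact test (scipy 1.17.1, Python 3.11.15) ran over all genes with Benjamini-Hochberg adjustment, and the code was tested on simulated data.

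Genes were named by rule. They were members never called, called in 1 to 3 libraries or called in all, members called in every library of 1 group and none of another, the 5 widest and 5 narrowest, paralogs with parents, and listed pathway genes with that pattern. Others (such as Rpl5, Rpl11, Rps6, Rpl27 and the stalk genes) were chosen after their values were seen. Alternatives tried were windows of 500 and 2500 bp, summits in the window, −log10 q of at least 5, equal number, equal depth, starts only, leaving out each library, and pairing by replicate number. A few genes are not reported here by name.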

Additional observations from a re-analysis of the deposited data

How the results depend on the processing

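The ratio of the share of ribosomal protein genes called to that of other genes, 2.37 over the 10 libraries, was 2.77 with equal numbers of peaks and lay between 2.30 and 2.44 with any 1 library left out. The mean number of genes called was 52.0 in WT at equal depth, 20 in Het and 15.5 in WT with equal numbers, and 53.75 in WT at starts of 65 genes. Leaving out 1 library of the group gave means of 25 to 55.5 in Homo, 31.5 to 42.5 in Het and 65.3 to 70.7 in WT. The count called in all libraries, 4, was 7 with windows of 2500 bp, 2 with −log10 q of at least 5, 1 with equal numbers and 2 at equal depth, and 4 to 13 with 1 library left out (13 without Homo 2). Members called in all WT and no Het library, 9, were 0 with equal numbers and at equal depth. With equal numbers 1 member was called in all Het and no WT library, against 0.148% of all genes. With −log10 q of at least 5, members called in all WT and no Het library numbered 8, of which 4 were among the 9 (Rpl7, Rpl14, Rpl31 and Rps18). These were 8 of the 46 members then called in all 4 WT libraries, against 14.3% of all such genes. Windows of 500 bp left 8, without Rps18, and starts only left 6. Of members called in all 4 WT libraries these were 8 of 50 and 6 of 43, against 9.54% and 9.46% of all such genes. At starts Rpl7 and Rpl32 could not be counted, as the promoter table lacks them, and Rps18 no longer met the rule. With 1 library left out, members called in all WT and no Het library numbered 9 to 16 (16 without Het 1 and 14 without WT 3). Without Het 1 these were 16 of the 53 members called in all 4 WT libraries, against 24.3% of all such genes. Without WT 3 they were 14 of the 64 members called in all other WT libraries, against 13.7%. In Homo against WT the members absent from Homo numbered 0 to 15, in Het and Homo together against WT 0 to 5, and in Homo against Het 0 to 1, the highest each without Homo 3. These highest counts were 15 of 53, 5 of 53 and 1 of 14 members called in all libraries of the comparator. The shares of all such genes were 41.3%, 6.47% and 19.0%. Members called in all Homo and no Het library numbered 0 to 5, with 5 without Homo 2. The share of all genes without Homo 2 was not counted, so these 5 have no background beside them. Beyond fewer libraries, the cause of these changes was not tested. Summit position (−52 to −42 bp) and width at starts (337.5 to 359 bp) moved little. Same-numbered libraries did not deviate together, with correlations of −0.0769 to 0.0248 and 0 of 9 pairs over 0.1. Under a replicate block, the members absent from Het against WT numbered 11, the same as when WT 4, which has no partner in the block, was left out. These were 11 of the 55 members called in all WT libraries of the block, against 10.7% of all such genes. The counts of the other comparisons stayed at 0. Lists without read counts limit every statement to peaks called or not called.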
